A study of Mus musculus with 12 samples.

Results

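Clustered GLI1 binding sites are those that have at least 1 other site on the same chromosome within 10000 bp, measured from start to start. They made up 603 of 2605 sites (23.1%, 95% Wilson interval 21.6 to 24.8) found in mouse cardiac progenitor cells after induction of tagged GLI1. Chaining neighbours gave 269 clusters of 2 to 6 sites. The remaining 2002 sites are called solitary here. The rule used positions alone, so the strength of the sites and the acetylation around them were free to vary.

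The cells were cardiac progenitors differentiated from mouse embryonic stem cells of the A2Lox.cre background, all of the single line GLI1-FTA, which carries an inducible, tagged GLI1, and all were harvested on day 6. Dox cells had received 500 ng/ml doxycycline for 24 hours from day 5, and control cells, which carry the same construct, were left untreated. Each state had 2 samples of GLI1 pulldown on streptavidin beads, 2 of H3K27ac chromatin immunoprecipitation and 2 of input, 12 in all, and nothing in the labels says whether a pair came from separate cultures. The GLI1 is expressed from a construct, so the sites are those of induced protein in 1 line and not of a Hedgehog signal. Values came from 3 lists: the GLI1 sites of dox cells, 67463 H3K27ac intervals of control cells and 76437 of dox cells. Each list pools the 2 samples of its group, so no value can be given per sample, the spread between samples is unknown, and differences between dox and control were not tested. Intervals on shares (Wilson), on medians (from the order statistics) and on single regions (exact binomial, from the pileups at the summits) are at 95% and cover counting error only. Reads per library are not given in the lists. The covered length was 59.9 Mb in control and 66.0 Mb in dox.

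In Hedgehog signalling, ligand binding to the receptor Patched frees Smoothened, and the pathway ends in the GLI zinc-finger factors, which bind DNA at GACCACCCA-like sequences. Among the genes they activate are Ptch1 and Gli1 themselves, which makes these genes standard readouts of the pathway. In the embryo the second heart field, which supplies the outflow tract and atrial septum, receives Hedgehog signals. H3K27ac is an acetylation of histone H3 found at active promoters and enhancers, and several binding sites of 1 factor close together are a known arrangement at enhancers.

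H3K27ac at gene ends (within 1000 bp of either annotated end) gave a mixed picture of the labelled cell type. Of 8 cardiac transcription factor genes, Gata6, Tbx20, Hand2 and Isl1 had a peak there in both lists, with fold enrichments (the authors' ratio of the pileup at a summit to its local background) of 17.3 to 26.7 in control and 10.8 to 21.0 in dox, while Nkx2-5, Gata4, Tbx5 and Mef2c had none in either. Of 5 sarcomere genes, Tnnt2, Actc1, Myl7 and Ttn had one in control (3.35 to 10.4) and only Tnnt2 in dox (3.74). Peaks stood at the ends of 7 (control) and 8 (dox) of 20 endothelial and blood genes, 3 and 4 of 17 neural genes, and 7 and 8 of 15 pluripotency genes. Fold enrichments in control and dox were 3.06 to 11.7 and 2.82 to 33.1 for the endothelial and blood genes. They were 7.70 to 31.9 and 7.99 to 34.0 for the neural genes, and 6.68 to 36.0 and 5.12 to 43.9 for the pluripotency genes. The values of the cardiac factors thus lay within the ranges of the neural and pluripotency genes. In control they lay above all those of the endothelial and blood genes. In dox the endothelial and blood value of 33.1 was that of Sox18, and the next was 11.2 at Pecam1. The medians in dox were 16.6 for the cardiac factors and 4.97 for the endothelial and blood genes. The part of other cell types in the results below was not tested.

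Few clustered sites lay where sequence was at hand: 10 of the 603 shared a base with a RefSeq promoter window (250 bases before to 50 after a gene start, GRCm38.p6, the assembly called mm10) and 4 lay wholly inside one. The sites at Nkx2-9 and at the noncoding gene Gm11476 are shown because each belongs to a cluster described below. Capitals mark the best match to GACCACCCA on either strand, which differed from it at 2 positions in both cases. Both matches are on the opposite strand.
Nkx2-9, chr12:56613340-56613440, minus strand: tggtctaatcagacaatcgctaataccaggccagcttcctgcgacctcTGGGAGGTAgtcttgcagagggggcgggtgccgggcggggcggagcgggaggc
Gm11476, chr2:167553189-167553289, plus strand: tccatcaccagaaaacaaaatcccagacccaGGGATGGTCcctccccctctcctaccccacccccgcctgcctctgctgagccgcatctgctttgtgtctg
A match this close on either strand is common. In windows of the same 101 bases in the middle of all 32851 promoter windows, 25.8% held a match with at most 2 mismatches. The Foxf2 promoter lies inside a cluster span and inside an H3K27ac region of the dox list alone, with sites on both sides of it. Capitals mark the GGGTGG stretches, the reverse complement of the inner letters CCACCC.
Foxf2, chr13:31625566-31625865, plus strand: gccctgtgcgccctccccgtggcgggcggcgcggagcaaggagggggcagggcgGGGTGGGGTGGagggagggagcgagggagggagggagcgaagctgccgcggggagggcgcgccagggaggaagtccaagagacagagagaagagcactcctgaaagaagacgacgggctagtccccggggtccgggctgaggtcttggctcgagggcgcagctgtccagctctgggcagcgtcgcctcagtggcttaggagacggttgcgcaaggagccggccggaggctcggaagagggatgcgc
The Foxf2 promoter held 2 overlapping matches to CCACCC on the minus strand, which 31.5% of all promoter windows of 300 bases hold at least once on either strand. The promoter of Ptch1, inside another cluster, held none. Neither held GACCACCC, which 0.807% of windows hold.

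Most clusters were pairs. There were 224 clusters of 2 sites, 31 of 3, 9 of 4, 4 of 5 and 1 of 6, with a median span of 1421 bp (240 to 23448). The 334 steps between neighbouring sites had a median of 1068 bp, and they fell into 2 kinds. In 107 steps both sites were summits of 1 GLI1 peak, 16 to 804 bp apart with a median of 357 bp. In the other 227 they belonged to separate GLI1 peaks, with a median of 2861 bp (317 to 9962). Hence 77 clusters (158 sites) were several summits of 1 peak, and 192 (445 sites) joined several peaks, 25 of them 3 or more. At the limit of the rule, the last sites inside were 9962, 9943 and 9898 bp from their neighbour, and the first outside 10096 and 10100 bp.

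The clusters were spread unevenly over the genome. The share of sites that were clustered was highest on chromosomes 8 (37.1%), 13 (35.3%) and 12 (33.8%) and lowest on chromosome 3 (13.2%). Clusters also lay near each other: 31 of the 269 stood within 100000 bp of another, in 12 loci. Around Foxf1 on chromosome 8 (120825519 to 121127627), from Irf8 to Foxl1, lay 6 clusters with 13 sites. Ptch1 (chromosome 13, 63528723 to 63612194) had 3 clusters with 9 sites, a stretch from inside Ercc6l2 towards Hsd17b3 on the same chromosome (63899009 to 64003901) 3 with 9, and a stretch beside Pkdcc (chromosome 17, 83075003 to 83199622) 3 with 8. Against protein-coding genes, 30 clustered sites (4.98%) lay at a gene end, 255 (42.3%) farther inside a gene and 318 (52.7%) between genes, and solitary sites had 5.34%, 44.9% and 49.8%.

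In dox cells nearly all clustered sites lay in acetylated chromatin. A dox H3K27ac peak held 558 of the 603 sites (92.5%, 90.2 to 94.4), beside 75% of all GLI1 sites and 69.8% (67.7 to 71.8) of the solitary ones. A control peak held 216 (35.8%, 32.1 to 39.7), beside 25% of all sites and 21.7% (20.0 to 23.6) of the solitary ones. Clustered sites therefore stood above solitary ones by 22.8 percentage points (19.7 to 25.5) in dox and by 14.1 (9.93 to 18.4) in control, and neither interval reached 0. Sites of a cluster share a locus and often a peak, so these intervals are narrower than independent loci would give. In the dox list alone lay 344 sites (57.0%), against 50.6% of all sites and 48.6% of the solitary ones, 214 lay in both lists, 2 in control alone and 43 (7.13%) in neither, where solitary sites had 29.7%.

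The share in a dox peak changed with the distance to the nearest other site without a step at 10000 bp. It was 93.7% up to 1000 bp, 93.6% at 1001 to 5000 bp, 88.9% at 5001 to 7500 bp and 85.7% (73.3 to 92.9) at 7501 to 10000 bp. Just outside the limit, at 10001 to 12500 bp, it was 86.7% (73.8 to 93.7), and it was 64.7% (62.1 to 67.2) for the 1355 sites more than 100000 bp from the next. The control share was 39.6% at the shortest and 19.1% at the longest distances. The intervals of the bins on either side of 10000 bp overlap in both lists.

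**Figure D1:**
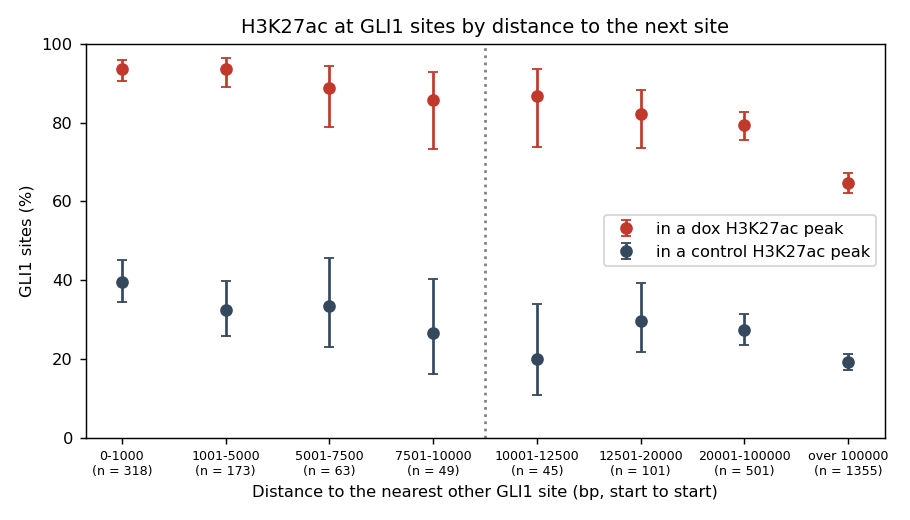
Share of GLI1 sites (%, vertical axis) in a dox peak (red) and in a control peak (dark blue) of H3K27ac, in bins of distance to the nearest other site (bp, horizontal axis, with the number of sites); bars are 95% Wilson intervals and the dotted line marks the 10000 bp limit. The dox share is 93.7% in the first bin and 64.7% in the last, with 85.7% and 86.7% on either side of the limit.

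Larger clusters had a higher share of sites in control peaks and a similar share in dox peaks. Sites in clusters of 2, of 3 and of at least 4 lay in a control peak in 31.0% (26.9 to 35.5), 46.2% (36.5 to 56.3) and 54.8% (42.5 to 66.6), and in a dox peak in 92.6%, 91.4% and 93.5%. The share in the dox list alone was accordingly 62.1%, 45.2% and 38.7%. These sites came from 224, 31 and 14 clusters and share loci, so the intervals are too narrow. By cluster, all sites lay in control peaks in 23.2%, 35.5% and 28.6%, which is no steady rise. No site did in 61.2%, 41.9% and 21.4%. With more sites in a cluster, both all and none are harder to reach. Sites of clusters inside 1 GLI1 peak had 41.8% in control and 94.3% in dox, and those of clusters joining several peaks 33.7% and 91.9%. Between genes, 40.3% (35.0 to 45.7) of clustered and 18.8% (16.5 to 21.3) of solitary sites lay in a control peak. Inside genes it was 28.2% (23.1 to 34.1) and 21.5% (18.9 to 24.3), with overlapping intervals. At gene ends the shares were close, 53.3% (36.1 to 69.8) of 30 clustered and 51.4% (42.0 to 60.7) of 107 solitary sites.

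The strength of a site is the authors' −log10 q of its summit. Clustered and solitary sites had close medians, 31.2 (28.4 to 34.7) and 30.8 (29.6 to 32.6), and the interval of the difference, 0.37 (−3.00 to 4.13), covers both directions. Clustered sites were more often at the ends of the scale: when all sites were split by strength into 4 groups of about equal size, the weakest group (up to 18.8) took 29.2% of them and the strongest (above 59.7) 29.4%, and 20.7% fell in each of the others. Strength differed widely inside a cluster. The strongest site had a median of 57.9 and the weakest 18.8, and their median ratio was 2.98, with 14.6 in the 14 clusters of at least 4 sites. A cluster has more draws for both ends, so this ratio grows with the number of sites.

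**Figure D2:**
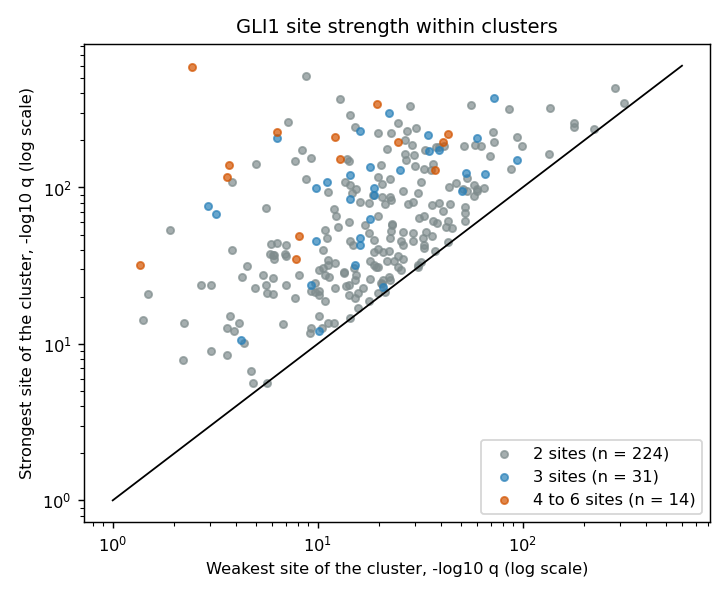
Strongest against weakest site of each of the 269 clusters, both as −log10 q on log axes, with colour for the number of sites; the line marks equality. Most clusters stand well above the line, and the 14 clusters of 4 to 6 sites have a median ratio of 14.6.

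Within groups of similar strength the shares in a dox peak still differed. From the weakest to the strongest of the 4 groups, a dox peak held 89.8%, 91.2%, 91.2% and 97.2% of clustered sites and 59.8%, 64.8%, 71.8% and 83.6% of solitary ones. The gap was widest among the weakest sites, where the intervals were 84.4 to 93.4 and 55.4 to 64.0. In control the shares were 40.9%, 36.0%, 27.2% and 36.7% for clustered and 21.3%, 23.2%, 20.7% and 21.7% for solitary sites. Strengths inside a group were not equal: medians of clustered and solitary sites were 10.9 and 14.7 in the weakest group and 116.0 and 94.8 in the strongest. The groups were made by summit and not by GLI1 peak. A weak clustered site can be a further summit of a strong peak, such as 7.19 beside 262 in the pair nearest Camk1g. In the third group the control intervals overlap (20.2 to 35.6 and 17.4 to 24.4).

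For sites inside a peak, the highest fold enrichment of the interval that holds the site was taken. Its median in dox was 19.2 (17.7 to 20.3) for clustered and 12.1 (11.6 to 12.8) for solitary sites, and the control median 14.5 (11.2 to 15.8) and 9.91. An interval with several sites counts once for each of them, and a wider interval has more room for a high summit. Values by width are given below. The intervals around clustered sites were also wider, with a median of 3846 bp against 2408 bp in dox and 2452 bp against 1678 bp in control. The site itself usually lay beside the summit of acetylation: the median distance to the nearest dox summit was 263.5 bp (248 to 274) for clustered and 270 bp (265 to 276) for solitary sites. Within 100 bp of a summit lay 12.0% and 7.52%.

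Acetylation also covered more of the surroundings. In the 10101 bp centred on a clustered site, a median of 568 bp was covered by control peaks and 5509 bp by dox peaks, and at solitary sites 0 and 2474 bp. Of all bases in these windows, 18.7% in control and 54.8% in dox were covered at clustered sites, and 10.2% and 29.7% at solitary ones. No control peak touched the window of 39.8% of clustered sites. Windows of neighbouring sites overlap. Over whole clusters with 5000 bp on each side, dox peaks covered more bases than control peaks in 256 of 269 clusters and fewer in 11, with medians of 6161 and 713 bp. By single sites, dox peaks covered more of the window in 94.7% of clustered and 86.0% of solitary sites, so most of this count is common to GLI1 sites.

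Neighbouring sites often shared an acetylated interval in dox cells. Of the 334 steps, 215 (64.4%) joined sites inside 1 dox interval and 69 (20.7%) sites inside 1 control interval. Between separate GLI1 peaks it was 121 (53.3%) and 30 (13.2%) of 227. Among the 269 clusters, all sites lay in dox peaks in 234 (87.0%), some in 28 and none in 7. All lay in control peaks in 67, some in 49 and none in 153 (56.9%). The most common state, in 123 clusters (45.7%), was all sites in dox peaks and none in control, followed by all sites in both in 66. A single dox interval held all sites of 162 clusters (60.2%) and a single control interval those of 47 (17.5%). In the 49 clusters with some sites in control peaks, the strongest GLI1 site was in one in 23 and was not in 26. All sites lay in dox peaks in 45 of these 49.

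Intervals of the 2 lists that share at least 1 bp were merged into regions. The 338 regions that held clustered sites comprised 174 shared between the lists and 164 of the dox list alone (48.5%, where the share over all 94481 regions was 35.5%), with none of the control list alone. Regions with solitary sites were more often of the dox list alone (797 of 1407, 56.6%) and were narrower, with a median of 2448 bp against 3602 bp. The shares by sites given above are not on the same base, since they count sites in no peak (43 clustered, 594 solitary), which form no region. Of the sites in a dox peak, 344 of 558 clustered and 973 of 1397 solitary ones lay in the dox list alone, the same order as by regions. For a shared region, the log2 ratio of its highest fold enrichment in dox over that in control was taken relative to the median over all 35389 shared regions (−0.13). The median of the regions with clustered sites was 1.19 (0.88 to 1.42), with 153 (87.9%) above 0. A ratio of at least 1 stood in 99 (56.9%, 49.5 to 64.0), beside 6.78% of all shared regions, and none had a ratio of −1 or less, which 8.31% of all shared regions had. Regions with solitary sites had a median of 0.97 (0.85 to 1.12), with 300 of 607 (49.4%) at 1 or more and 8 at −1 or less. The difference of the medians was 0.21 (−0.13 to 0.48), an interval that covers 0, and away from gene ends the medians were 1.19 and 1.15. Its size differed with the way sites were counted: with sites within 500 bp counted as 1 the difference was 0.47 (0.20 to 0.66), with 1 site per GLI1 peak 0.36 (0.14 to 0.64), and with the interval that holds the site in place of the region 0.02 (−0.24 to 0.35).

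**Figure D3:**
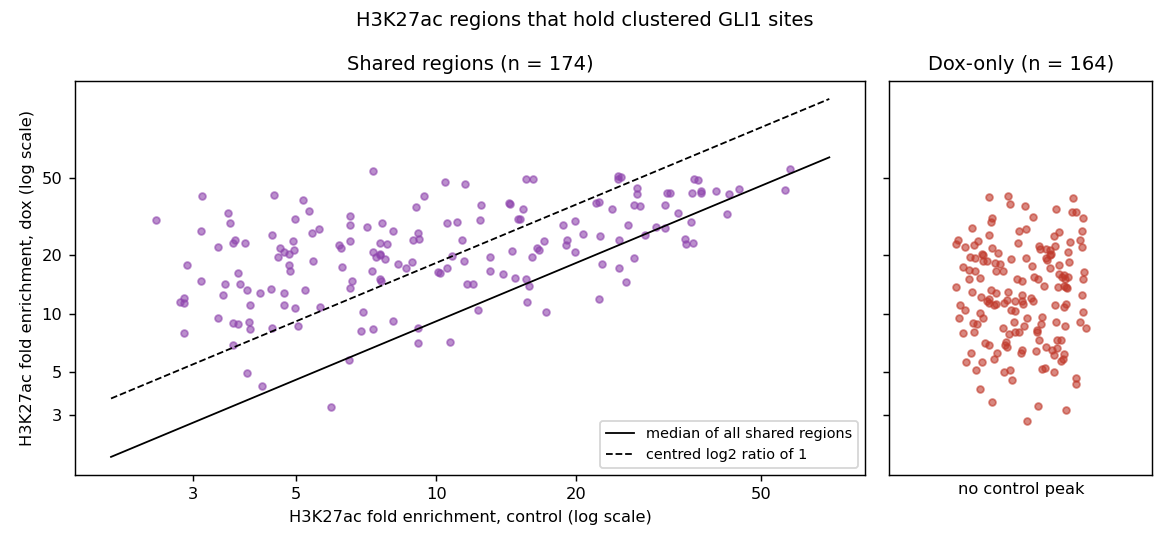
Highest H3K27ac fold enrichment in control (horizontal) and dox (vertical), both on log axes, of the 174 shared regions that held clustered sites, and at right the dox values of the 164 regions without a control peak, spread sideways for legibility. The solid line is the median of all shared regions and the dashed line a centred log2 ratio of 1; 99 regions lie on or above the dashed line.

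Regions with more clustered sites were wider and more often shared. Of 143 regions with 1 clustered site, 60.8% were of the dox list alone and the shared ones had a median ratio of 1.33 (1.06 to 1.68). With 2 sites (175 regions) it was 41.7% and 1.21 (0.72 to 1.499), and with at least 3 (20 regions) 20% and 0.63 (0.09 to 1.18). The median width went from 2781 to 4088 to 9631 bp and the median dox fold enrichment from 13.2 to 19.4 to 34.3 over the same groups. A wider interval has more room for a peak of the other list, and the part of width in these shares was not tested. By width, the median ratio of shared regions with clustered sites was 0.47 (0.02 to 1.19) at 1000 to 2000 bp, 1.56 (1.07 to 1.75) at 2000 to 4000 bp, 1.29 (0.83 to 1.55) at 4000 to 8000 bp and 0.74 (0.37 to 1.53) from 8000 bp. Regions with solitary sites had 0.88 (0.67 to 1.05), 1.20 (1.03 to 1.36), 0.95 (0.67 to 1.25) and 0.34 (0.12 to 0.47). The medians with clustered sites were lower in the first of these widths and higher in the others, with overlapping intervals at each width. Over shared and dox-only regions together, the median dox fold enrichment with clustered sites was 8.46, 15.1, 22.6 and 36.3 at these widths. With solitary sites it was 8.05, 14.3, 22.1 and 28.1, so the values were close below 8000 bp.

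Genes of the Hedgehog pathway were often close to a cluster. Of 41 analysed genes on a list of pathway members and known GLI targets, 12 (29.3%, 17.6 to 44.5) had a cluster within 50000 bp, beside 389 of 20476 protein-coding genes (1.9%). Among them were Ptch1, Gli1, Sufu, Foxf1, Foxf2, Foxl1, Foxc2, Osr1, Nkx2-9, Snai1 and Pkdcc. Foxf1, Foxc2 and Foxl1 are neighbours and share 2 clusters. Any GLI1 site lay within the window of 19 of the 41 genes (46.3%), beside 13.4% of all genes. The gene lists were chosen with earlier results of these data known. These shares are therefore a description and not independent evidence of enrichment.

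Ptch1 encodes the receptor that holds Smoothened inactive and is itself induced by GLI factors. Its largest cluster held 5 sites over 10545 bp at the upstream end of the gene (chr13:63563114-63573658), with strengths of 83.5, 177, 34.8, 6.30 and 226. The first 2 lay in control peaks and all 5 in dox peaks. One region of 20556 bp held them all, and its fold enrichment was 25.0 in control cells and 50.7 in dox cells, a ratio of 1.15 (0.82 to 1.51). The sites without a control peak include the strongest and the weakest of the cluster. With the neighbouring clusters, Ptch1 had 9 clustered sites within 50000 bp, 4 in control and all 9 in dox peaks.

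At Gli1, the gene of the induced factor itself, 4 sites over 2193 bp (chr10:127339475-127341667) were summits of 1 GLI1 peak, with strengths of 43.3, 98.1, 139.5 and 220.4. A control peak held all but the one of 98.1, and dox peaks held all 4. The fold enrichment of their region was 9.03 in control cells and 35.4 in dox cells (2.103, 1.62 to 2.68). Sufu, the cytoplasmic inhibitor of GLI factors, had 2 pairs in its window, 3 of the 4 sites in control and all 4 in dox peaks, and the strongest site had 65.6.

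At the forkhead genes the clustered sites lay mostly outside control peaks. Foxf1 and Foxl1, transcription factor genes of mesenchyme next to gut endoderm and Hedgehog targets there, and Foxc2, a mesodermal forkhead gene, share 2 pairs. One pair, 3466 bp from Foxf1, had strengths of 181 and 38.0, and the other, 58 bp from Foxl1, had 56.1 and 336. None of these 4 sites was in a control peak and all were in dox peaks. The highest fold enrichment of the intervals that hold the sites was 40.2 in the first pair and 27.7 in the second. Farther out, 140611 bp from Foxf1, a pair with strengths of 365 and 12.9 was among the 5 clusters with the strongest sites. The stronger of the pair lay in a region of the dox list alone with a fold enrichment of 34.6, and the weaker in a shared region with 5.62 in control and 10.8 in dox (1.07, 0.40 to 1.83). Over the whole locus from Irf8 to Foxl1, 2 of 13 sites were in control peaks and all 13 in dox peaks. Foxf2, the close relative of Foxf1, had 3 sites over 8536 bp, with strengths of 32.8, 43.0 and 16.1. The first 2, on either side of the promoter printed above, lay in a region of 6906 bp of the dox list alone with a fold enrichment of 21.4, and the last in no peak. Foxp1 had 3 sites in dox peaks and none in control. These sites lay in 1 shared region with a ratio of 0.42, so a control peak stood in that region away from the sites. Foxa3 had a pair with 1 site in control and both in dox peaks. In all, 6 of 28 forkhead genes (21.4%, 10.2 to 39.5) had a cluster in the window, beside 1.9% of all protein-coding genes.

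At Nkx2-9, a homeobox gene of the ventral neural tube, 4 sites over 8345 bp fell into 2 pairs of unlike state. The pair at the gene's start, with the site printed above, had strengths of 24.6 and 54.8 and lay in both lists, in a region with 7.57 in control and 23.1 in dox (1.74, 1.17 to 2.44). The other pair was stronger, 195 and 156, and lay in a region of 3788 bp of the dox list alone with 31.3. Snai1, a zinc-finger repressor of epithelial genes, had a cluster with a ratio near 0. Its 3 sites 8058 bp from the gene, with strengths of 62.8, 18.0 and 35.9, the second of them the site printed above at Gm11476, were in peaks of both lists, with 31.1 in control and 27.7 in dox (−0.03, −0.38 to 0.32). A pair in the same window, 20396 bp from Ube2v1, had strengths of 8.78 and 517 and stood at 24.5 and 49.6 (1.15, 0.82 to 1.49). The pair nearest Pkdcc, a secreted kinase gene, was in both lists, as were all 8 sites of its 3 clusters. At Osr1, a zinc-finger gene of early mesoderm, the 2 sites (22.7 and 4.92) were in no peak of either list.

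In the other gene groups a smaller share of genes than on the Hedgehog list had a cluster in the window. Over all protein-coding genes, 1.9% had a cluster and 13.4% any site in the window. The SOX family had 3 of 19 genes (15.8%, 5.52 to 37.6): Sox5 and Sox18 with pairs in dox peaks alone and Sox12 with a pair in both lists. At Sox18, an endothelial factor gene, the strengths were 184 and 52.1. The mesoderm and second heart field list had 2 of 30 (Osr1 and Foxp1). Of 29 cardiac transcription factor genes 9 (31.0%) had any site in the window but only Prdm16 (3.45%) a cluster, a pair of strengths 30.7 and 30.8 outside every peak. Sarcomere and calcium handling genes had a cluster at 0 of 30 and any site at 7 (23.3%). A cluster stood at 0 of 17 neural genes, 1 of 20 endothelial and blood genes (Sox18), 1 of 15 pluripotency genes (Sall4, with both sites in dox peaks alone) and 0 of 13 housekeeping genes. The upper limits of the interval for the 3 lists at 0 are 11.4%, 18.4% and 22.8%, so shares around the background cannot be told from 0 there.

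The highest ratio at any cluster lay on chromosome 13 beyond Ptch1. In this cluster, 79042 bp from Ercc6l2, a gene of a DNA repair helicase family, 5 sites over 12224 bp had strengths of 196, 42.4, 93.6, 105 and 40.7. No site lay in a control peak and all 5 lay in dox peaks. Their region of 19485 bp counted as shared through a weak control peak away from the sites, where fold enrichment was 3.13 (−log10 q of 2.63), against 40.5 in dox (3.83, 3.07 to 4.97). The strongest clustered site of all lay 54373 bp from Hsd17b3, a steroid dehydrogenase gene, in a cluster of 5 over 23448 bp with strengths of 588.9, 210.1, 18.9, 421.4 and 2.44. All 5 sites were in peaks of both lists. The 3 regions had 7.31 in control and 54.4 in dox (3.03, 2.51 to 3.70), 4.44 and 25.5 (2.65, 1.97 to 3.58), and 16.2 and 49.2 (1.74, 1.34 to 2.18). The strongest and the weakest site of this cluster lay in different regions. The named genes are the nearest protein-coding ones, and no value here ties a cluster to a gene.

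**Figure D4:**
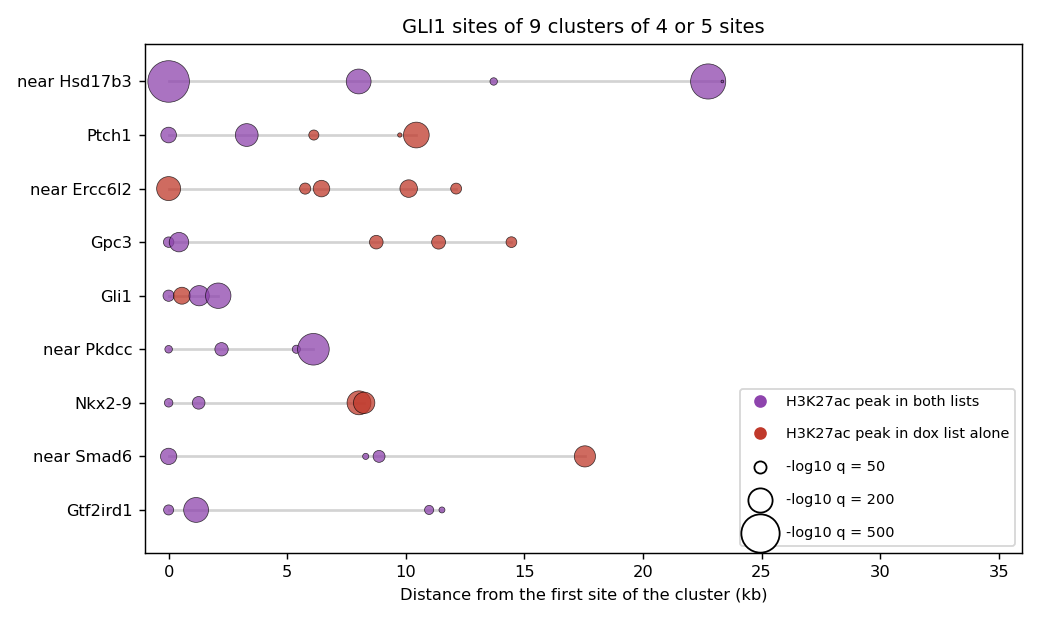
Of the 10 clusters with most sites, the 9 described here, 1 per row, labelled by the gene that holds or is nearest to the cluster; the horizontal axis is the distance from the first site (kb), the area of a point is the −log10 q of the site and the colour its H3K27ac state. Ptch1, Gpc3, Nkx2-9 and the cluster near Smad6 show purple sites (peaks in both lists) at one end and red ones (dox list alone) at the other, and the row near Ercc6l2 is all red.

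Clusters with 4 or 5 sites at other genes showed both uniform and split states. Gpc3, a glypican gene whose product binds Hedgehog ligands, had 5 sites with strengths of 37.3, 129.0, 63.4, 65.9 and 39.6, the first 2 in both lists and the others in dox alone, and its 2 regions had ratios of 1.56 (0.97 to 2.26) and 1.18 (0.61 to 1.83). The cluster 2460 bp from Smad6, an inhibitory SMAD gene, had 3 sites in both lists (90.9, 12.9 and 48.8) and its strongest (153) in dox alone. Its 3 regions had −0.20 (−0.64 to 0.25), 0.45 (0.09 to 0.81) and 1.53 (0.95 to 2.22), the last of them around the strongest site. Gtf2ird1, a general transcription factor family gene, had 4 sites in both lists, with ratios of 1.56 (1.03 to 2.18) around the strongest (211) and 0.46 (0.07 to 0.87) around the weakest pair. The 4 sites 100610 bp from Pkdcc (19.6, 60.9, 22.7 and 341) were all in both lists, in a region with 44.6 in dox and a ratio of 0.86 (0.53 to 1.20).

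Other clusters held very strong sites, high ratios or dox acetylation alone. A pair 71340 bp from Srbd1 had strengths of 430 and 284, with neither site in a control peak. In Cuedc1, 3 sites of 123, 372 and 72.4 lay in both lists, with ratios of 2.23 (1.74 to 2.82) and 0.74 (0.41 to 1.09). Slit3, the gene of a secreted guidance ligand, had 3 sites in both lists (34.6, 62.1 and 215) in a region with 11.5 in control and 46.6 in dox (2.15, 1.71 to 2.66). Gse1 had 3 sites in dox peaks alone, with 5.41 and 26.1 (2.40, 1.83 to 3.13) in the shared one of its 2 regions. In Fbxl7, an F-box protein gene, 3 sites (22.2, 58.4 and 300.2) lay in a region of the dox list alone with a fold enrichment of 39.3. These are single regions of pooled lists, chosen as the extremes of their kind.

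Among clusters of at least 3 sites, those with the lowest ratios stood in chromatin with a high fold enrichment in control cells. The control value is the denominator of the ratio, so choosing the lowest ratios favours high control values in itself. Unc5b, a netrin receptor gene, had 3 sites of similar strength (20.8, 23.2 and 21.2) in a region of 27039 bp with 56.3 in control and 43.5 in dox (−0.24, −0.50 to 0.02). A cluster of 4 sites 66914 bp from Opa1, a mitochondrial fusion gene, had strengths of 8.14, 11.1, 16.6 and 48.7. Its region had 34.3 and 24.1 (−0.37, −0.68 to −0.07), the lowest mean ratio among clusters of at least 3 sites. The pileup at the summit was 175 in control and 192 in dox. Reads per library are not known, so these pileups do not show whether the signal was lower in dox. The cluster 282953 bp from Triqk had 24.8 and 24.0 (0.09, −0.29 to 0.47), and the one 86578 bp from Tmco5 37.1 and 43.1 (0.35, 0.06 to 0.65). Among pairs, 8 had a lower mean ratio than the cluster near Opa1, down to −0.79. The control fold enrichment of the intervals that hold their sites ran from 4.202 to 34.4, so it was not high in all of them. The region values above are the highest of a region, which can differ from those of the intervals that hold the sites. A pair 132819 bp from Pkdcc had 7.36 in control and 23.2 in dox in the intervals that hold its sites but a region ratio of −0.49. No cluster of at least 3 sites lacked a dox peak at every site. The 7 clusters with no site in a dox peak were all pairs, and 1 of the 43 clustered sites in neither list lay in a stretch where the running peak numbers of a list skip, so that a peak may have been removed there before deposit.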

How the data were processed

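Per the deposited file names, the authors combined the 2 samples of each group before peak calling, and the submitters' processing notes name Bowtie2 2.3.2, SAMtools 1.5, MACS2 2.1.1 and mm10 without roles. The deposited GLI1 list holds windows of 101 bp around summits, named as replicated and holding a Gli motif, with a value read as −log10 q from its lowest value of 1.36. The authors' H3K27ac lists hold fold enrichment, a ratio to the local background, with −log10 p, −log10 q and a whole-number score. Lists of the control GLI1 pulldown and the inputs were not analysed here.

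From these, sites were chained at 10000 bp, H3K27ac summits of 1 interval were collapsed, intervals of both lists sharing at least 1 bp were merged into 94481 regions, and shared regions were given a centred log2 ratio computed from the deposited fold enrichments. Pileups behind the intervals of single regions were recovered from fold enrichment and −log10 p within 0.01. Genes came from a RefSeq table (GRCm38.p6) with outer coordinates but no exons. Running peak numbers skip in 335 stretches of the control and 359 of the dox list. The 1420 genes with an end there were not analysed, which left 20476. Clusters were named by rule: the 10 with most sites (ties by summed strength), the 5 with the strongest site, those of at least 3 sites within 50000 bp of a hedgehog list gene, and, among clusters of at least 3 sites, the 5 highest and the 5 lowest mean ratios, the 5 with the highest dox fold enrichment and no control peak at a site, and any without a dox peak. This gave 25 clusters, of which some are not reported here; list genes were named where a cluster lay in the window. The members and the gene lists were chosen with earlier results of these data known. Chaining was tested on 811 simulated sites, all of which received the right cluster. Python 3.11.15, NumPy 2.4.6, pandas 2.3.3, SciPy 1.17.1 and matplotlib 3.10.9 were used.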

Additional observations from a re-analysis of the deposited data

How the results depend on the processing

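Of 78 alternative values under 14 settings, 63 kept their direction and stayed within the counting interval of the reported value or, for counts, within 1.5 times of it. For the difference in median log2 ratio, 0.21, that interval is wide: it was 0.47 with sites within 500 bp counted as 1, 0.36 with 1 site per GLI1 peak, 0.04 away from gene ends and 0.02 by the interval that holds the site, and the first 2 have intervals above 0. The difference in median strength, 0.37 for clustered minus solitary sites, was −1.05 with chaining at 5000 bp and −3.15 when only sites in a dox peak were kept; it was 7.12 (median 38.0) when sites within 500 bp counted as 1, and, in alternatives chosen after seeing the data, 4.29 (median 35.1) with 1 site per GLI1 peak and 27.1 (median 57.9) for the strongest site of each cluster. With sites widened by 500 bp, 43.6% of clustered sites lay in a control and 98.5% in a dox peak, and the dox difference was 8.95 percentage points. When peaks under a −log10 q of 10 were left out, the shares were 29.7% and 89.9%, the dox difference 26.1 points and the median log2 ratio 0.69. The cause was not tested in these cases. Chaining at 5000 bp gave 491 sites in 227 clusters and at 20000 bp 749 in 324. No paired analysis was possible because each list pools its samples and carries no replicates, so leaving out a replicate was not possible either. Depth is unknown from the lists, and how far a weak control peak was missed for lack of reads was not tested.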
